A study of Mus musculus with 83 samples.

Results

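Fresh ovarian follicles (CD-1 mice, outbred) were compared 1 h after an ovulatory stimulus in culture and at its start. The comparison holds 6 follicles taken at 1 h and 18 taken at 0 h, 24 of the 83 single-follicle libraries of the series, and the members were chosen by their labels. All follicles were wild type. They had grown for 8 days in 0.5% alginate and were 300 to 350 µm across when they were freed from the beads. The medium they then received held human chorionic gonadotropin (hCG, 1.5 IU/ml), EGF (10 ng/ml), recombinant FSH (10 mIU/ml) and 10% fetal bovine serum. The labels name only hCG as the treatment and apply it to 0 h follicles too. EGF, FSH and serum came with hCG, as did release from the bead, so that these inputs cannot be told apart. Each library is 1 follicle, that is an oocyte with its granulosa cells and whatever theca cells stayed attached. All 0 h libraries carry titles of a plate of their own. The 6 libraries of 1 h carry another title prefix, which fresh libraries of 4 and 8 h share. It is called the shared plate below, although the labels do not say what it marks. Some sample numbers repeat under it, so it need not be a single batch. The hour and the plate cannot be told apart. The fresh 1 h and 4 h libraries carry the same title prefix. Their values are set beside the main comparison where they are of use. Values of follicles labelled vitrified are also given in places, 15 at 0 h and 14 at 1 h. Their 0 h libraries lie on the same plate as the fresh 0 h libraries. Of those of 1 h, 5 carry the shared prefix and 9 a prefix of vitrified libraries only. In the vitrified step too the hour and the plate cannot be told apart, so it is no independent repeat. No label ties a follicle to an animal or a culture run, and p-values therefore rest on the spread among single follicles, which may share both.

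hCG acts on the receptor for luteinizing hormone, which granulosa cells of large follicles carry. The receptor raises cyclic AMP, which activates protein kinase A, and the kinase phosphorylates CREB factors that bind the cAMP response element in promoters. EGF-like factors made in response then activate MAP kinases in neighbouring cells. The immediate targets of this cascade are well known; the account below deals mostly with other gene classes.

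Of 11521 genes tested, 2199 rose at 1 h (19.1%) and 2679 fell (23.3%; edgeR, adjusted p at 0.05). A log2 fold change of 3 or more was reached by 294 of the genes that rose, and a fall as large by 185. In 741 genes every 1 h follicle exceeded every 0 h follicle, and in 489 every 1 h follicle lay below, together 10.7% of the genes tested. Values are given below as CPM, counts scaled to a common library size after TMM scaling, with the lowest, median and highest follicle of each group. Total counts were 2596728 ± 469861 per library at 1 h (SD, n = 6) and 2825656 ± 1444756 at 0 h (n = 18), within the spread of the libraries (exact permutation test, two-sided, adjusted p = 0.726). The TMM factors did not overlap, with 0.792 to 0.926 at 1 h and 1.03 to 1.31 at 0 h. Scaling by total counts alone shifted all genes by -0.48 (log2), so the median log2 fold change was -0.11 with TMM and -0.59 without it. With total counts alone 1139 of the 11521 genes rose and 5129 fell. Class counts under that scaling are given beside the others and are to be read against these numbers over all genes. Class counts with TMM are to be read against the 19.1% higher and 23.3% lower over all genes. A class median that turns negative under total counts alone is to be read against the -0.59 over all genes. In whole follicles, fewer cells of a type and less RNA per cell cannot be told apart.

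Genes with at least 1 count numbered 13708 ± 457 at 1 h (SD, n = 6) and 14755 ± 1088 at 0 h (n = 18), a difference of -1046 (exact permutation test, two-sided, adjusted p = 0.0458). The share taken by the 50 most abundant genes was 42.2% ± 1.71 at 1 h and 46.1% ± 3.95 at 0 h (exact permutation test, two-sided, adjusted p = 0.0458). Both calls were lost when any 1 of the 6 libraries of 1 h was left out, and against plate row E of the 0 h libraries alone. The gene model Gm10800 held 3.65% ± 1.20 of counts at 1 h and 7.18% ± 2.15 at 0 h. Its part in the fold changes was not tested.

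**Figure D1:**
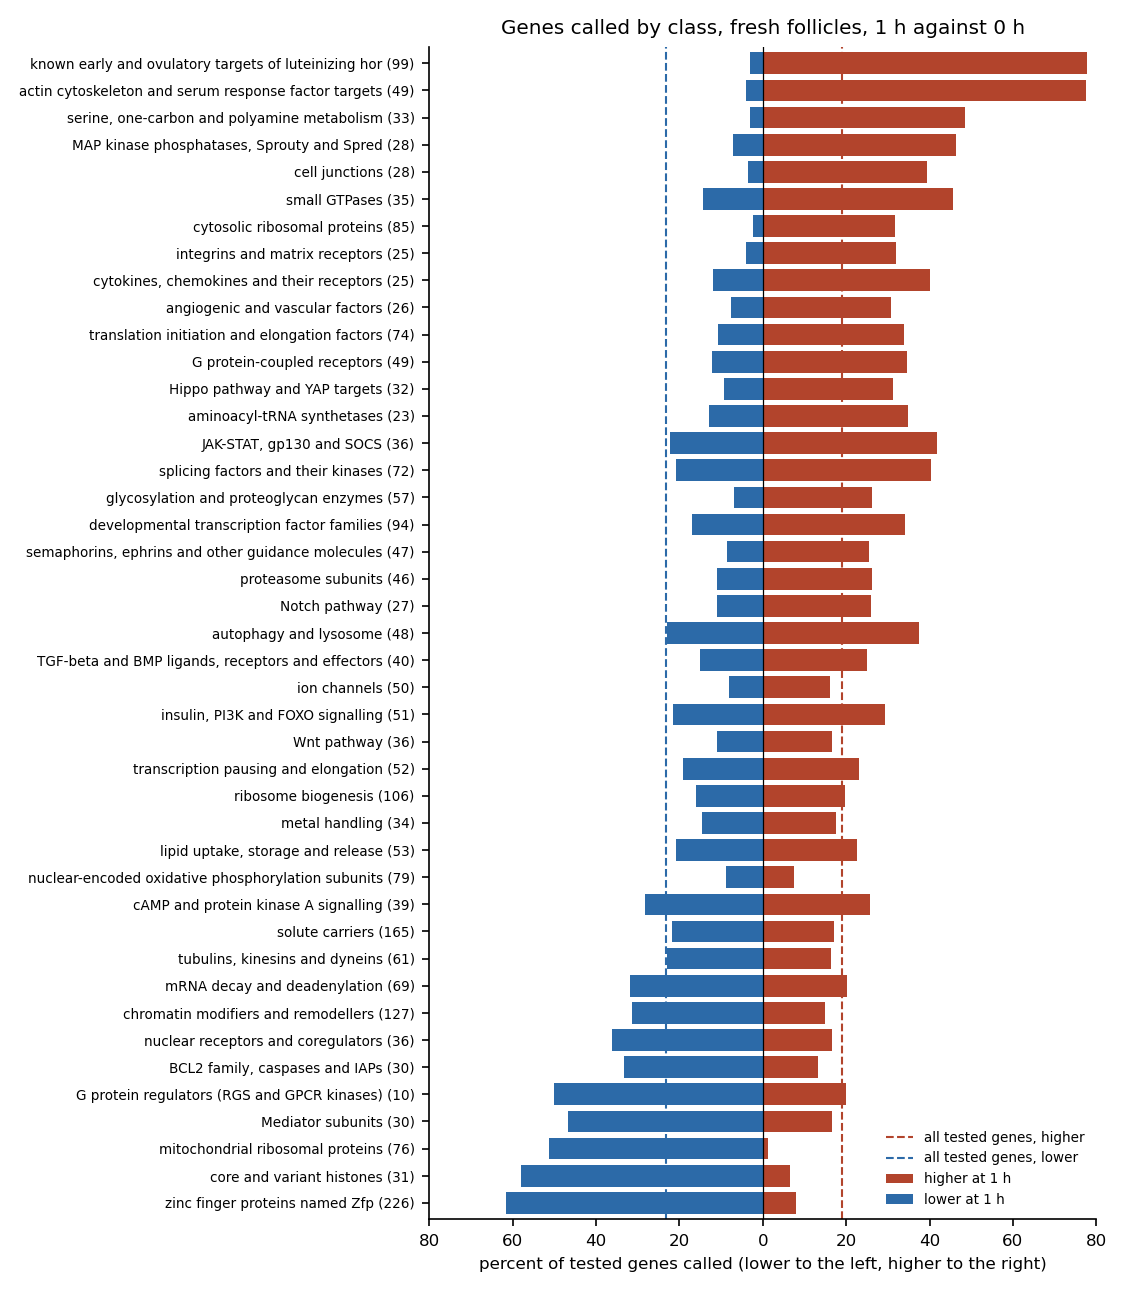
Percent of the tested members of each gene class shown that rose (to the right) or fell (to the left) in fresh follicles at 1 h relative to 0 h, with the number tested in brackets and the shares over all tested genes as dashed lines. Actin and serum response factor genes reach 77.6% higher, and Zfp genes 61.5% lower.

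Of a list of 99 known targets of luteinizing hormone, 77 rose and 3 fell, with a median log2 fold change of 3.58, against -0.11 over all genes tested. This list was put together from textbook targets with the outcome known and serves here as the yardstick for the other classes. Under total counts alone 71 rose and 9 fell.

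The cAMP response element was looked for as the letters TGACGTCA, which read the same on both strands, in RefSeq windows of GRCm38.p6 that start 250 bases before each gene. Over all 32851 windows, of tested and untested genes, 1.79% held it anywhere in the window. Of the genes that rose only 68.7% had a window, and a comparison of shares between genes that rose and fell is not reported here. Printed here are the 6 genes with the largest rise among those examined that hold the full element before the start. The choice passed over genes on a chromosome whose sequences are not reported here. Each is shown by 60 bases on the strand of the gene, with the element in capitals. They let a reader see the same letters in genes of quite different roles. Areg encodes an EGF-like growth factor, Errfi1 an inhibitor of the EGF receptor, Ell2 a transcription elongation factor, Btg2 an antiproliferative factor, Plk2 a polo-like kinase and Dusp8 a phosphatase of MAP kinases.
Areg, chr5:91139512-91139571 (+): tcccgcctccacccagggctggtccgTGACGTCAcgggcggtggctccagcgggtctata
Errfi1, chr4:150854993-150855052 (+): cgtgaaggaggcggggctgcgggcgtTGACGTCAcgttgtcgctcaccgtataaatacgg
Ell2, chr13:75707260-75707319 (+): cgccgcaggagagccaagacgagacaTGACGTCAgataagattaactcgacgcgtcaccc
Btg2, chr1:134079288-134079347 (-): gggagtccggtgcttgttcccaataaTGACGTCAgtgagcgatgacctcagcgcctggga
Plk2, chr13:110394956-110395015 (+): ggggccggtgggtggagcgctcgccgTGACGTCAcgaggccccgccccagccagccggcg
Dusp8, chr7:142095358-142095417 (-): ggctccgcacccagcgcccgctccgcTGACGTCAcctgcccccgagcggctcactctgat

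The element lies 53 bases before the start in Areg, 43 in Errfi1, 54 in Plk2, 99 in Dusp8, 158 in Btg2 and 190 in Ell2. A match of letters is a description and not a site of binding. Areg had 399, 762 and 964 CPM at 1 h, against 0, 0.341 and 1.37 CPM at 0 h (10.72 ± 0.39, adjusted p = 6.88e-39). Errfi1 rose by 6.90 ± 0.25 (adjusted p = 5.76e-40) and Btg2 by 6.66 ± 0.49 (adjusted p = 3.31e-20). These 3 are known targets, whereas Ell2, Plk2 and Dusp8 are not on that list. Ell2 had 57.0, 99.0 and 143 CPM (lowest, median, highest) at 1 h, against 0, 0.785 and 2.28 CPM at 0 h. Plk2 had 172, 401 and 599 CPM at 1 h, against 1.60, 5.16 and 13.5 CPM at 0 h. Dusp8 had 52.6, 65.4 and 92.1 CPM at 1 h, against 0, 1.18 and 5.55 CPM at 0 h. In Ell2, Plk2 and Dusp8 the groups did not overlap. Their log2 fold changes were 6.69 ± 0.39 for Ell2 (SE, adjusted p = 2.13e-26), 6.18 ± 0.27 for Plk2 (adjusted p = 5.33e-34) and 5.41 ± 0.28 for Dusp8 (adjusted p = 2.29e-31). On the shared plate, at 4 h relative to 1 h, Ell2 fell by 5.69, Plk2 fell by 3.33 and Dusp8 fell by 3.89 on the log2 scale. In vitrified follicles of the same hour Ell2 rose by 8.01, Plk2 by 7.35 and Dusp8 by 4.81.

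Of 39 genes of cAMP signalling itself 10 were higher (25.6%) and 11 lower (28.2%), against 19.1% and 23.3% of all genes. Under total counts alone 8 were higher and 16 lower. The median log2 fold change with TMM was -0.04. The class leaves out Pde4b, Pde4d, Crem and Sik1, which stand on the list of known targets and all rose; they are named here after their values were seen. Pde10a and Pde7b, which encode phosphodiesterases that degrade cyclic nucleotides, rose most among the 39. Pde10a had 24.8, 47.9 and 67.2 CPM at 1 h, against 0, 1.07 and 2.80 CPM at 0 h, a log2 fold change of 5.32 ± 0.31 (adjusted p = 2.93e-27). Pde7b had 135, 201 and 423 CPM at 1 h, against 13.7, 24 and 60.2 CPM at 0 h (3.02 ± 0.25, adjusted p = 5e-18). Akap10, an anchor of protein kinase A, fell by 1.90 ± 0.40 (adjusted p = 5.37e-05). Rgs2, which shortens signalling by Gq proteins, reached 3540, 4810 and 5550 CPM at 1 h, against 16.1, 81.8 and 162 CPM at 0 h (5.77 ± 0.20, adjusted p = 5.95e-43). Rgs2 also stands on the list of known targets. Of 10 tested RGS and GPCR kinase genes 2 rose and 5 fell (2 and 7 under total counts alone), but 1 fell against plate row E of 0 h alone, 3 against row F alone, and 2 or 3 without any 1 library of 1 h.

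Among G protein-coupled receptors 17 of 49 rose and 6 fell, with 10 and 14 under total counts alone. Htr1d, a serotonin receptor, had 15.3, 25.4 and 39.8 CPM at 1 h and no more than 0.560 CPM in any follicle at 0 h (7.74 ± 0.54, adjusted p = 8.11e-22). Gpr3, a receptor with constitutive activity that in mouse oocytes keeps cyclic AMP high, had 7.54, 11.6 and 27.7 CPM at 1 h, against 0, 0.0757 and 1.17 CPM at 0 h (5.16 ± 0.36, adjusted p = 1.42e-22). In a fit of the 24 libraries only, 23 of these genes passed the filter and 7 rose, and without replicate 3 of 1 h 10 rose. Oocyte markers are given further below, since Gpr3 is best known from that cell.

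The class of MAP kinase phosphatases, Sprouty and Spred genes also holds kinases of the cascade. In it 13 of 28 rose and 2 fell (9 and 7 under total counts alone, with a median of 0.46 turning to -0.01). Both feedback genes and kinases were among those that rose. Beside Dusp8, Dusp10 rose by 3.25 ± 0.47 (adjusted p = 1.2e-08). Of the JAK-STAT class 15 of 36 rose and 8 fell, but 9 and 12 under total counts alone, with a median of 0.25 that turned to -0.24. Pim1, a kinase gene induced by STAT factors, had 26.4, 45.3 and 63.5 CPM at 1 h, against 0, 0.587 and 4.48 CPM at 0 h (5.85 ± 0.33, adjusted p = 1.31e-27). Its relative Pim3 rose by 3.57 ± 0.23 (adjusted p = 3.39e-24). Stat2, a factor of interferon signalling, fell by 2.60 ± 0.43 (adjusted p = 4.36e-07), and each of the 6 follicles at 1 h lay below all 18 at 0 h. Pias3, an inhibitor of STAT3, fell by 2.12 ± 0.36 (adjusted p = 5.97e-07).

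Cytokines and their receptors rose in 10 of 25 tested and fell in 3, with 9 and 4 under total counts alone; in a fit of the 24 libraries only, 14 passed the filter and 5 rose. Tnfrsf12a, the receptor for the cytokine TWEAK, had 349, 507 and 542 CPM at 1 h, against 0, 1.89 and 4.09 CPM at 0 h (7.77 ± 0.26, adjusted p = 4.64e-43). Il7, best known as a growth factor of lymphocytes, had 33.2, 46.0 and 71.5 CPM at 1 h, against 0, 0 and 1.44 CPM at 0 h (7.07 ± 0.32, adjusted p = 1.02e-34). Both kept rising on the shared plate, by 1.45 and 1.42 at 4 h relative to 1 h. Summed immune markers held 25.2 to 58.9 CPM at 1 h and 2.74 to 104 CPM at 0 h, and all 10 listed genes had a higher mean at 1 h. The macrophage receptor gene Csf1r averaged 1.46 CPM at 1 h and 0.273 CPM at 0 h, and was at 0 in 0 of 6 follicles at 1 h and in 9 of 18 at 0 h. Ptprc, which marks all leukocytes, was at 0 in 5 of 6 follicles at 1 h and in 13 of 18 at 0 h. Only 1 of 10 listed immune genes passed the filter, and it was not called. The part of immune cells in the rise of Tnfrsf12a and Il7 was not tested.

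Developmental signalling pathways held members that rose and members that fell. In the Hippo class 10 of 32 rose and 3 fell, but 8 and 8 under total counts alone, where the median of 0.42 turned to -0.07. The largest rises were those of Amotl2, which binds YAP at junctions, and Ccn1, a matricellular protein and YAP target. Ccn1 had 452, 519 and 703 CPM at 1 h, against 3.69, 26.2 and 233 CPM at 0 h (3.41 ± 0.42, adjusted p = 8.99e-11), and the 0 h follicles differed among themselves far more than those of 1 h. Amotl2 had 36.3, 78.2 and 170 CPM at 1 h, against 2.47, 5.78 and 10.6 CPM at 0 h (3.77 ± 0.27, adjusted p = 1.15e-21). Both were short-lived, with falls of 6.02 for Ccn1 and 4.65 for Amotl2 at 4 h relative to 1 h. In the Notch class 7 of 27 rose and 3 fell, but 5 and 10 under total counts alone, with a median of 0.34 that turned to -0.13. Heyl and Hey2, related repressors downstream of Notch, went opposite ways: Heyl had 241, 368 and 383 CPM at 1 h, against 7.77, 20.5 and 79.2 CPM at 0 h (3.72 ± 0.32, adjusted p = 5.17e-17), and Hey2 had 12.9, 18 and 30.6 CPM at 1 h, against 87.4, 139 and 230 CPM at 0 h (-2.93 ± 0.23, adjusted p = 7.97e-20).

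Of TGF-beta and BMP genes 10 of 40 rose and 6 fell, but 8 and 13 under total counts alone, with a median of 0.31 that turned to -0.18. Skil, a repressor of SMAD signalling, rose by 3.38 ± 0.20 (adjusted p = 1.59e-27), and the ligand Bmp2 had 691, 1040 and 1810 CPM at 1 h, against 75.2, 152 and 305 CPM at 0 h (2.75 ± 0.25, adjusted p = 1.61e-16). Id1, a target of BMP signalling, had 4.65, 7.20 and 12.4 CPM at 1 h, against 30, 46.7 and 100 CPM at 0 h (-2.93 ± 0.28, adjusted p = 2.47e-15). The ligand gene Bmp2 thus stood higher and Id1 lower in the same follicles, with no overlap of the groups in either gene. Id2, a relative of Id1, was among the 10 that rose, and is named here after its value was seen. In the Wnt class 6 of 36 rose and 4 fell, both below the shares over all genes, and 4 and 8 under total counts alone. The receptor gene Fzd4 had 58.9, 65.9 and 95.1 CPM at 1 h, against 9.60, 15.8 and 30.5 CPM at 0 h (2.03 ± 0.21, adjusted p = 2.7e-14), and then fell by 5.17 at 4 h relative to 1 h. Fzd3, another Wnt receptor, fell by 1.10 ± 0.17 at 1 h (adjusted p = 1.56e-07).

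In the insulin, PI3K and FOXO class 15 of 51 rose and 11 fell, but 10 and 21 under total counts alone, with a median of 0.12 that turned to -0.35. Phlda1 had 26.7, 38.9 and 79.6 CPM at 1 h, against 0, 1.16 and 5.79 CPM at 0 h (4.59 ± 0.30, adjusted p = 7.59e-24). The pseudokinase genes Trib1 and Trib2 moved in opposite directions. Trib1 had 39.4, 56.9 and 81.6 CPM at 1 h, against 1.18, 3.75 and 7.22 CPM at 0 h (3.84 ± 0.21, adjusted p = 8.94e-30). Trib2 had 135, 267 and 323 CPM at 1 h, against 1020, 1980 and 3320 CPM at 0 h (-3.10 ± 0.27, adjusted p = 9.86e-18). Foxo1, a factor of growing granulosa cells that FSH holds in check, had 14.4, 28.9 and 40.5 CPM at 1 h, against 113, 175 and 320 CPM at 0 h (-2.70 ± 0.39, adjusted p = 1.9e-08), and fell by a further 3.15 at 4 h relative to 1 h.

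**Figure D2:**
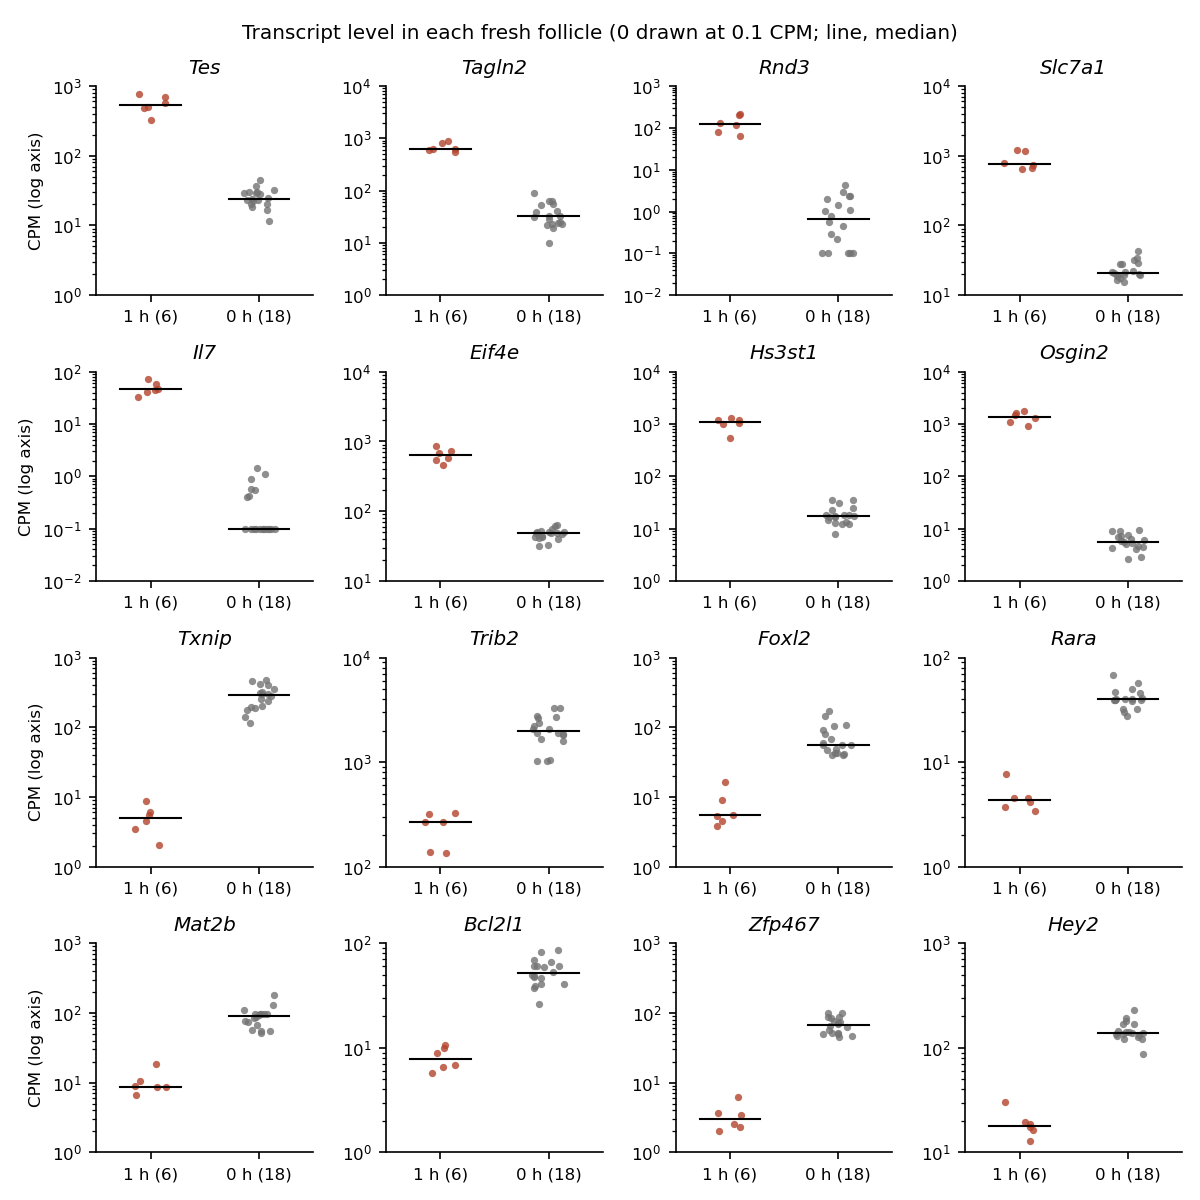
CPM (log axis) of 16 genes in each fresh follicle, 6 at 1 h to the left and 18 at 0 h to the right of each panel, with a line at the median. In every panel the groups do not overlap; the upper 8 genes rose and the lower 8 fell.

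Of the 43 classes, that of the actin cytoskeleton had the largest share of members that rose. Of 49 actin genes and serum response factor targets 38 rose (77.6%) and 2 fell, with a median log2 fold change of 1.31. Under total counts alone 28 rose and 4 fell, with a median of 0.83, and in vitrified follicles 39 rose and 3 fell over the same hour. Serum response factor works with MRTF coactivators that sense free actin. Serum was part of the medium given with hCG, and its part in these rises was not tested. Tes, a protein of focal adhesions, had 324, 536 and 755 CPM at 1 h, against 11.8, 24.3 and 45.1 CPM at 0 h (4.42 ± 0.20, adjusted p = 5.28e-34). Tagln2, an actin-binding protein, had 539, 629 and 895 CPM at 1 h, against 10.1, 32.1 and 91.4 CPM at 0 h (4.17 ± 0.26, adjusted p = 1.23e-24). Actg1, cytoplasmic gamma actin, had 11400, 13800 and 15700 CPM at 1 h, against 2550, 3960 and 5520 CPM at 0 h (1.73 ± 0.12, adjusted p = 1.07e-22). Mrtfb, which encodes one of the MRTF coactivators, fell by 1.16 ± 0.18 (adjusted p = 6.1e-08). Smooth muscle markers were nearly absent, with a summed 0.413 to 5.39 CPM at 1 h and 0 to 4.99 CPM at 0 h.

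Of 35 small GTPases 16 rose and 5 fell, with 12 and 10 under total counts alone and a median of 0.39 that turned to -0.12; 3 fell without replicate 6 of 1 h and against plate row F of 0 h alone. Rnd3, a small GTPase that loosens actin fibres, had 62.8, 124 and 219 CPM at 1 h, against 0, 0.654 and 4.36 CPM at 0 h (6.68 ± 0.33, adjusted p = 1.85e-30). Gem, which restrains calcium channels, had 280, 528 and 599 CPM at 1 h, against 1.06, 7.52 and 14.4 CPM at 0 h (6.04 ± 0.26, adjusted p = 4.46e-35). Tubulin, kinesin and dynein genes were near the shares over all genes, 10 of 61 higher and 14 lower (7 and 24 under total counts alone). Tubb2a, a beta tubulin, rose by 3.61 ± 0.23 (adjusted p = 1.44e-24), whereas Kif3b, a motor of cilia, had 0 to 1.37 CPM at 1 h and 2.04 to 12.8 CPM at 0 h (-3.71 ± 0.56, adjusted p = 4e-08).

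Of 25 integrins and other genes of matrix attachment 8 rose and 1 fell, but 3 and 3 under total counts alone. Of those that rose 4 were integrin subunits, and the gene that fell was Ptk2, which encodes focal adhesion kinase and whose call was lost without replicate 2 of 1 h and against plate row E of 0 h alone. Itga2, a collagen receptor subunit, had 43.1, 104 and 157 CPM at 1 h, against 0, 3.95 and 9.49 CPM at 0 h (4.39 ± 0.25, adjusted p = 4.7e-28), and Itgav rose by 2.94 ± 0.24 (adjusted p = 2.45e-18). Among axon guidance molecules, which also steer cells outside the nervous system, 12 of 47 rose and 4 fell, but 6 and 15 under total counts alone. The ephrin receptor gene Epha4 had 54.9, 68.8 and 159 CPM at 1 h, against 0, 0.968 and 2.07 CPM at 0 h (6.43 ± 0.35, adjusted p = 3.35e-28). Robo2, a receptor for Slit, varied widely among the 1 h follicles, with 68.2, 300.0 and 755 CPM, against 3.33, 8.19 and 31.5 CPM at 0 h (5.13 ± 0.33, adjusted p = 1.94e-23). Every follicle at 1 h still exceeded every one at 0 h.

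Cell junction genes rose in 11 of 28 and fell in 1, but in only 2 under total counts alone and in 7 without replicate 1 or replicate 3 of 1 h. Cldn5, the tight junction protein of blood vessels, led the class with 2.87, 15.9 and 50.0 CPM at 1 h, against 0.532, 4.25 and 15.8 CPM at 0 h (1.94 ± 0.59, adjusted p = 0.00529), and this call was lost without replicate 3 and against plate row F of 0 h alone. Of 6 tested endothelial markers 3 rose, namely Cldn5 itself, Pecam1 and Cdh5, and none fell. Cldn5 and Cdh5 thus count in both lists. Under total counts alone 1 of the 6 rose. The median over the tested markers ran from -0.93 to 2.73 among the 1 h libraries, measured against the 0 h mean. The list summed to 10.2 to 145 CPM at 1 h and 5.49 to 69.1 CPM at 0 h. The mean was higher at 1 h in 8 of the 9 listed genes. Cdh5, an adhesion protein of endothelial junctions, averaged 33.9 CPM at 1 h and 12.3 CPM at 0 h, and Pecam1 averaged 9.56 CPM at 1 h and 2.91 CPM at 0 h. Vwf was at 0 in 5 of 6 follicles at 1 h and in 12 of 18 at 0 h. Angiogenic factors rose in 8 of 26 and fell in 2, with 3 and 5 under total counts alone, and 5 rose without replicate 3 of 1 h and against plate row F of 0 h alone. The part of endothelial cells in both classes was not tested.

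Enzymes that build proteoglycans and sugars rose in 15 of 57 and fell in 4, with 9 and 20 under total counts alone. Hs3st1, which adds sulfate to heparan sulfate and so makes it bind antithrombin, had 533, 1120 and 1300 CPM at 1 h, against 7.91, 17.4 and 35.7 CPM at 0 h (5.80 ± 0.21, adjusted p = 1.26e-40). Chst15, a sulfotransferase of chondroitin sulfate, had 230, 409 and 774 CPM at 1 h, against 1.11, 9.05 and 22.3 CPM at 0 h (5.38 ± 0.24, adjusted p = 5.44e-34). Both rose further at 4 h relative to 1 h, by 1.30 and 2.29. B4galt7, an enzyme that helps build the linker of such chains, fell by 1.73 ± 0.35 (adjusted p = 3.11e-05).

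Of 165 solute carriers 28 rose and 36 fell (20 and 78 under total counts alone), near the shares over all genes. Of 50 ion channel genes 8 rose and 4 fell (4 and 12), both below those shares. The 2 largest rises among the solute carriers were amino acid transporters. Slc7a1, which carries arginine and lysine, had 636, 764 and 1200 CPM at 1 h, against 15.5, 20.9 and 42.6 CPM at 0 h (5.20 ± 0.16, adjusted p = 9.9e-47). Slc7a8, which carries large neutral amino acids, had 5260, 6870 and 10700 CPM at 1 h, against 401, 894 and 1320 CPM at 0 h (3.09 ± 0.15, adjusted p = 6.63e-32). In the serine, one-carbon and polyamine class 16 of 33 rose and 1 fell, with 12 and 7 under total counts alone. Chac1, which degrades glutathione and is a target of ATF4, rose by 3.97 ± 0.64 (adjusted p = 2.24e-07) but reached only 1.24 to 9.60 CPM. Odc1, the first enzyme of polyamine synthesis, had 15.1, 40.2 and 71.1 CPM at 1 h, against 0.527, 2.80 and 10.7 CPM at 0 h (3.62 ± 0.51, adjusted p = 8.18e-09). Mat2b, the regulatory subunit of methionine adenosyltransferase, was the one that fell, with 6.56, 8.79 and 18.7 CPM at 1 h, against 51.3, 89.9 and 183 CPM at 0 h (-3.10 ± 0.22, adjusted p = 2.88e-22).

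Of 53 lipid genes 12 rose (22.6%) and 11 fell (20.8%), near the 19.1% and 23.3% over all genes. Under total counts alone 6 rose and 20 fell. Acsl4, which activates arachidonic acid, had 44.6, 68.6 and 102 CPM at 1 h, against 6.29, 11.5 and 22.8 CPM at 0 h (2.49 ± 0.24, adjusted p = 8.18e-15). Genes of fat breakdown moved both ways: Mgll, which encodes monoglyceride lipase, was among those that rose, whereas Lipe, hormone-sensitive lipase, had 0, 0.756 and 2.89 CPM at 1 h, against 4.56, 5.97 and 11.2 CPM at 0 h (-2.64 ± 0.42, adjusted p = 1.31e-07). G0s2, an inhibitor of the main triglyceride lipase, fell by 4.06 ± 1.00 (adjusted p = 0.000544), at levels that were low in both groups. Scd2, a desaturase, lost more CPM than most genes, with 1610, 2090 and 2620 CPM at 1 h, against 2450, 4340 and 6000 CPM at 0 h (-1.01 ± 0.22, adjusted p = 8.48e-05).

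**Figure D3:**
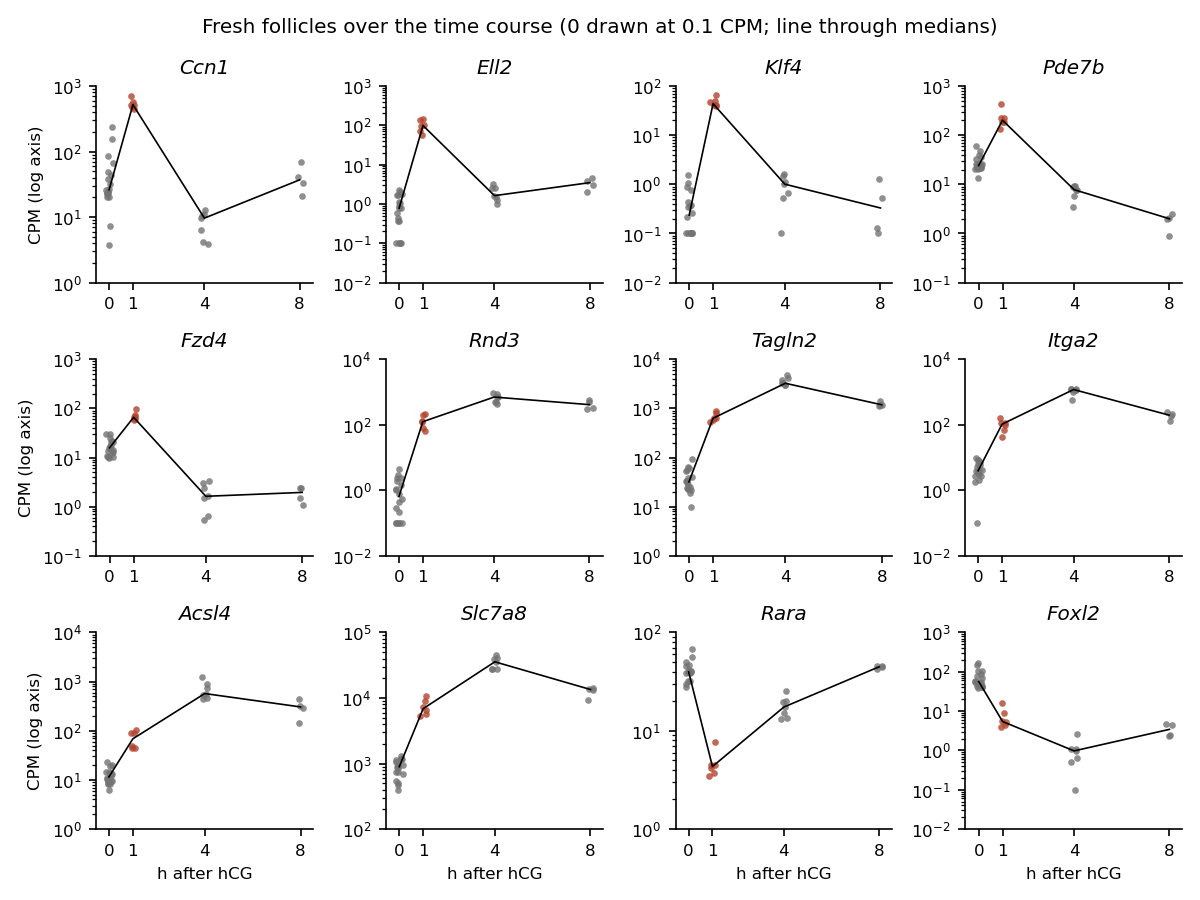
CPM (log axis) of 12 genes in each fresh follicle at 0, 1, 4 and 8 h after hCG (18, 6, 7 and 4 follicles). The 1 h follicles are in red, and a line runs through the medians. All but the 0 h libraries share a title prefix. Ccn1, Ell2, Klf4, Pde7b and Fzd4 are highest at 1 h, Rnd3, Tagln2, Itga2, Acsl4 and Slc7a8 at 4 h, while Rara is lowest at 1 h and Foxl2 at 4 h.

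Zinc finger genes named Zfp, most of which encode DNA-binding proteins with tandem C2H2 fingers, made up the class with the most falls. Of 226 tested 139 fell (61.5%, against 23.3% of all genes) and 18 rose, with a median log2 fold change of -1.20. The median over the class lay between -1.19 and -0.89 in every one of the 6 libraries of 1 h, measured against the 0 h mean. Under total counts alone 164 fell and 10 rose. A stricter filter left 98 of these genes, of which 62 fell, and limma on the authors' log2(TPM + 1) values called 56 of 95 lower. When all genes were ranked by mean level and cut into 4 classes of equal size, 54 of 92 Zfp genes fell in the lowest class, 48 of 73 in the second, 26 of 43 in the third and 11 of 18 in the highest, against 18.4%, 25.9%, 28.9% and 19.9% of all genes in those classes. In vitrified follicles, whose 0 h libraries lie on the same plate as the fresh 0 h libraries, 142 fell and 24 rose over the hour. Of all genes 25.9% fell and 24% rose in that step. On the shared plate 75 rose and 22 fell at 4 h relative to 1 h, against 22.2% and 24.7% of all genes.

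Zfp467 had 2.05, 2.97 and 6.22 CPM at 1 h, against 45.6, 66.8 and 99.6 CPM at 0 h (-4.32 ± 0.30, adjusted p = 5.46e-23). Zfp169 and Zfp383 had no count in any follicle at 1 h, which allows up to 0.226 CPM over the group (3 counts). At 0 h Zfp169 averaged 3.13 ± 1.57 CPM and Zfp383 1.99 ± 1.09 CPM (SD, n = 18), so Zfp169 was at least 13.9-fold and Zfp383 at least 8.83-fold lower at 1 h. The floors cover counting error only. At 4 h Zfp169 had 1.89 to 5.84 CPM and Zfp383 0.503 to 2.17 CPM, under the title prefix that the 1 h libraries also carry. Zfp703, a corepressor, was the Zfp gene that rose most, and had 93.3, 157 and 266 CPM at 1 h, against 1.06, 3.63 and 7.28 CPM at 0 h (5.41 ± 0.20, adjusted p = 8.59e-41). Members of this family share long stretches of sequence, and no source used here says how the authors assigned reads that match several of them.

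**Figure D4:**
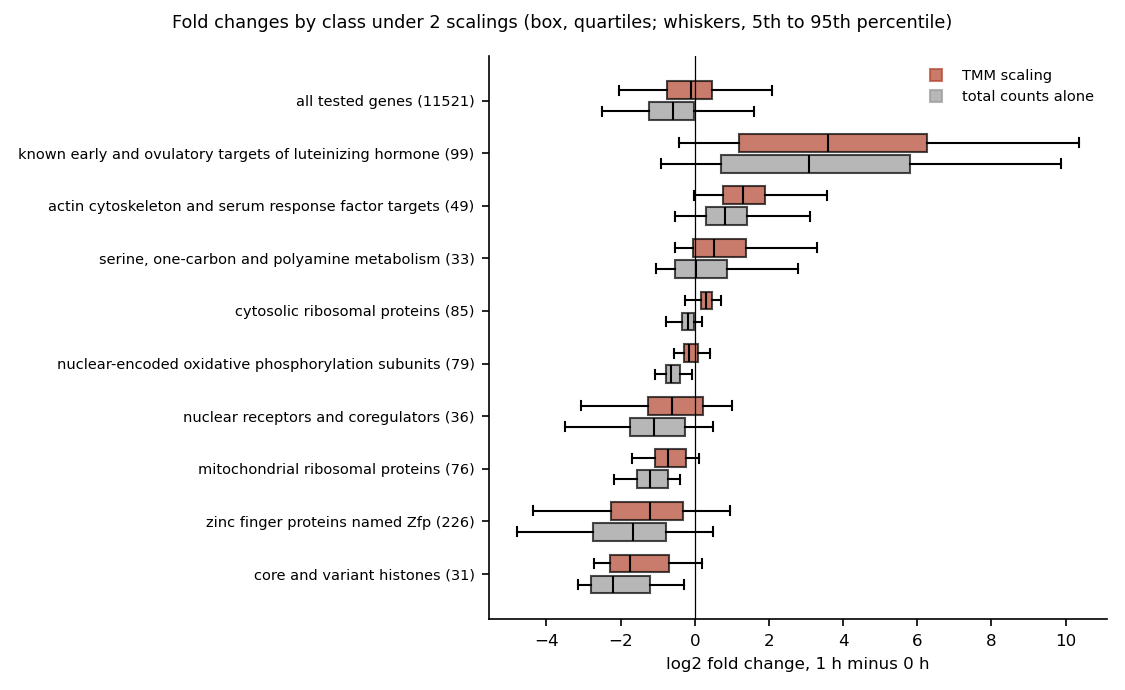
Log2 fold changes at 1 h relative to 0 h for all tested genes and 9 classes (number of genes in brackets), with TMM scaling in red and total counts alone in grey; boxes span the quartiles, and whiskers run from the 5th to the 95th percentile. Zfp, histone and mitochondrial ribosomal genes lie below all tested genes, and actin genes above them, under both scalings.

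Of 30 Mediator subunits 14 fell and 5 rose, but 9 fell against plate row E of 0 h alone, and 18 fell and 1 rose under total counts alone. The count of 5 that rose went to 3 without replicate 1 or 6 of 1 h, and to 2 without replicate 4 and against plate row F of 0 h alone. Med23, the subunit through which MAP kinase signals reach Mediator, rose most, with 206, 310 and 357 CPM at 1 h, against 52.4, 61.6 and 104 CPM at 0 h (2.09 ± 0.15, adjusted p = 2.43e-21). Med6, a core subunit, fell by 2.06 ± 0.56 (adjusted p = 0.00164). Chromatin modifiers fell in 40 of 127 and rose in 19 (71 and 10 under total counts alone). Tet1, which oxidises methylated cytosine, had 0.388, 0.595 and 2.49 CPM at 1 h, against 4.32, 9.54 and 21.1 CPM at 0 h (-3.08 ± 0.45, adjusted p = 1.29e-08). Arid5a, an RNA-binding stabiliser of inflammatory transcripts that the list holds for its ARID domain, rose by 4.05 ± 0.26 (adjusted p = 7.08e-25).

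Genes of pausing and elongation were near the shares over all genes, 12 of 52 higher and 10 lower (7 and 24 under total counts alone). Ccnl1, a cyclin tied to splicing and elongation, had 496, 716 and 891 CPM at 1 h, against 24.5, 33.3 and 43.5 CPM at 0 h (4.40 ± 0.15, adjusted p = 4.83e-43). Brd3, a reader of acetylated histones, fell by 1.41 ± 0.18 (adjusted p = 8.8e-11). Of 36 nuclear receptors and coregulators 13 fell and 6 rose, with a median of -0.60; under total counts alone 22 fell and 2 rose. Only 2 rose without replicate 2 of 1 h, and 3 without replicate 6. Rara, the retinoic acid receptor alpha, had 3.43, 4.33 and 7.75 CPM at 1 h, against 27.7, 39.7 and 67.7 CPM at 0 h (-3.11 ± 0.22, adjusted p = 7.41e-23), and rose again by 1.89 at 4 h relative to 1 h. Nr1d1, a repressor in the circadian clock, had 0.504, 1.39 and 2.74 CPM at 1 h, against 9.44, 17.5 and 36.7 CPM at 0 h (-3.75 ± 0.37, adjusted p = 4.34e-15). Ncoa7 rose instead, with 87.5, 128 and 180 CPM at 1 h, against 0.361, 2.90 and 6.39 CPM at 0 h (5.58 ± 0.27, adjusted p = 3.29e-32).

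Among families of developmental transcription factors 32 of 94 rose and 16 fell (26 and 32 under total counts alone), and 10 fell against plate row E of 0 h alone. Several of those that rose, Klf4 among them, also stand on the list of known targets. Klf4, a zinc finger factor of the immediate early kind, had 39.1, 43.7 and 66.4 CPM at 1 h, against 0, 0.236 and 1.58 CPM at 0 h (6.85 ± 0.34, adjusted p = 3.45e-32), and fell by 5.58 at 4 h relative to 1 h. Maff, a small partner of CNC factors such as NRF2, rose by 4.75 ± 0.42 (adjusted p = 4.91e-17). Foxl2, which maintains granulosa cell identity, had 3.88, 5.44 and 16.5 CPM at 1 h, against 39.4, 56.2 and 171 CPM at 0 h (-3.24 ± 0.38, adjusted p = 1.41e-11). Foxl2 is also 1 of the granulosa markers used here and the only one of 10 that fell.

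Histone genes fell in 18 of 31 and rose in 2, with a median log2 fold change of -1.75 (-2.20 under total counts alone). The transcripts of replication-dependent histones lack a poly(A) tail, and a method that primes on poly(A) sees few of them. H3c1 had 0, 0 and 1.64 CPM at 1 h, against 0, 5.35 and 24.8 CPM at 0 h (-3.80 ± 0.85, adjusted p = 0.000158), and H1f3 fell by 3.13 ± 0.67 (adjusted p = 7.44e-05). The groups overlapped in both. H3f3b, which encodes the replacement histone H3.3 from a polyadenylated transcript, rose, with 2430, 3030 and 4320 CPM at 1 h, against 1050, 1400 and 1790 CPM at 0 h (1.16 ± 0.12, adjusted p = 1.43e-13). H1f8, the linker histone of oocytes, also rose (1.54 ± 0.34, adjusted p = 0.000136). The summed histone level was 3460 to 5480 CPM at 1 h and 2220 to 3280 CPM at 0 h, although most members fell. Members of histone clusters are near copies of each other, so single members are uncertain.

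Of 72 splicing factors 29 rose and 15 fell, with 17 and 24 under total counts alone. Clk1, a kinase of SR proteins, had 337, 406 and 445 CPM at 1 h, against 37.6, 68.8 and 93.8 CPM at 0 h (2.56 ± 0.16, adjusted p = 8.24e-25). Ptbp1, a repressor of exon inclusion, had 2060, 2470 and 2830 CPM at 1 h, against 359, 483 and 540 CPM at 0 h (2.37 ± 0.10, adjusted p = 2.22e-37). Rbm5 fell by 1.42 ± 0.16 (adjusted p = 6.97e-13). Of genes of mRNA decay 14 of 69 rose and 22 fell (9 and 38 under total counts alone). Ythdc1, the nuclear reader of N6-methyladenosine, rose by 3.57 ± 0.30 (adjusted p = 8.08e-18), while Mettl14, part of the enzyme that writes this mark, fell by 1.63 ± 0.40 (adjusted p = 0.000536). Exosc7, a subunit of the RNA exosome, fell by 2.04 ± 0.35 (adjusted p = 9.11e-07).

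Calls in the cytosolic ribosome and the factors of translation depended on the scaling, which moved the median over all genes from -0.11 to -0.59. With TMM 27 of 85 cytosolic ribosomal protein genes rose and 2 fell, with a median of 0.31, but with total counts alone none rose and 8 fell, with a median of -0.18. Against plate row F of the 0 h libraries alone 57 rose. Single changes were small: Rplp0, of the ribosomal stalk, had 2710, 3340 and 3740 CPM at 1 h, against 1260, 1890 and 3940 CPM at 0 h (0.74 ± 0.13, adjusted p = 1.61e-06), and its call was lost with total counts alone. Translation factors rose in 25 of 74 and fell in 8 with TMM, against 9 and 21 with total counts alone, and 5 fell without replicate 5 of 1 h. Eif4e, which binds the mRNA cap, stood out from both classes under either scaling, with 463, 632 and 860 CPM at 1 h, against 32.2, 48.1 and 64.0 CPM at 0 h (3.76 ± 0.14, adjusted p = 7.6e-40). Genes of ribosome biogenesis were near the shares over all genes, 21 of 106 higher and 17 lower (8 and 47 under total counts alone). In that class 84 rose and 2 fell at 4 h relative to 1 h on the shared plate. Nop58, a core protein of box C/D particles, had already risen at 1 h by 2.23 ± 0.16 (adjusted p = 2.88e-22), while Rrs1 fell by 1.82 ± 0.32 (adjusted p = 1.52e-06).

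Of 76 genes of mitochondrial ribosomal proteins 39 fell (51.3%) and 1 rose, with a median log2 fold change of -0.72, and 59 fell under total counts alone. Mrpl49 had 0.685, 2.24 and 5.81 CPM at 1 h, against 4.56, 12.6 and 21.7 CPM at 0 h (-2.28 ± 0.36, adjusted p = 1.28e-07), and Mrpl44 fell by 2.22 ± 0.45 (adjusted p = 2.8e-05). The falls were not limited to the least abundant members, with 18 of 33 lower in the second of the 4 classes of level and 17 of 33 in the third. In vitrified follicles 38 fell and 2 rose over the hour, and on the shared plate 26 rose and 9 fell at 4 h relative to 1 h. The nuclear-encoded subunits of oxidative phosphorylation, also made for mitochondria, showed few calls with TMM, 6 of 79 higher and 7 lower, but 54 fell with total counts alone. Without replicate 1, 4 or 5 of 1 h 3 fell, and against plate row F of 0 h alone 10 rose and 2 fell. Atp5d, a subunit of ATP synthase, rose most in this class, with 405 to 645 CPM at 1 h, against 100.0 to 226 CPM at 0 h (1.70 ± 0.12, adjusted p = 8.41e-22).

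Aminoacyl-tRNA synthetases rose in 8 of 23 and fell in 3 at 1 h (3 and 12 under total counts alone), and on the shared plate 18 of them rose and none fell at 4 h relative to 1 h. Cars, which charges the tRNA of cysteine, rose by 2.37 ± 0.19 (adjusted p = 3.17e-19) and Nars, that of asparagine, by 1.51 ± 0.15 (adjusted p = 4.36e-15). Proteasome subunits rose in 12 of 46 and fell in 5 with TMM, but in 1 and 19 with total counts alone; 2 or 3 fell without replicate 1, 3, 4 or 6 of 1 h, and 3 against plate row F of 0 h alone. Of 30 genes of the BCL2 family, caspases and their inhibitors 10 fell and 4 rose (16 and 1 under total counts alone), and of 34 genes of metal handling 6 rose and 5 fell (4 and 16). Bcl2l1, which encodes the survival protein BCL-XL and its short form, had 5.78, 7.88 and 10.7 CPM at 1 h, against 26, 51.5 and 86.0 CPM at 0 h (-2.71 ± 0.26, adjusted p = 4.07e-15). Mcl1, a survival protein of the same family, rose by 1.61 ± 0.20 (adjusted p = 1.68e-10). Fadd, the adaptor of death receptors, had 0.388, 0.823 and 1.66 CPM at 1 h, against 5.13, 9.60 and 11.8 CPM at 0 h (-3.27 ± 0.44, adjusted p = 1.45e-09).

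Of 48 autophagy and lysosome genes 18 rose and 11 fell, with 6 and 20 under total counts alone. Gabarapl1, which is joined to the autophagosome membrane, rose by 2.84 ± 0.17 (adjusted p = 1.53e-27). Atg101, a subunit of the kinase complex that starts autophagy, had 570, 842 and 1180 CPM at 1 h, against 5.76, 11.4 and 14.9 CPM at 0 h (6.23 ± 0.17, adjusted p = 1.22e-51). This gene begins 9.48 kb beyond the end of Nr4a1 on the same strand of chromosome 15 in GENCODE vM21. Nr4a1, an orphan nuclear receptor and an immediate early gene, had 19100, 21500 and 27400 CPM at 1 h, against 9.13, 74.1 and 1250 CPM at 0 h (6.97 ± 0.61, adjusted p = 1.58e-16), and fell by 2.60 at 4 h relative to 1 h, where Atg101 fell by 4.95. The library kit does not mark strand, and the part of transcripts running on from Nr4a1 was not tested. Over the whole genome, the nearest tested gene upstream on the same strand was looked for within 10 kb, and overlapping genes counted as neighbours. In 40 tested genes this neighbour rose by 3 or more on the log2 scale, and 17 of the 40 rose (42.5%). Of 1576 genes whose nearest such neighbour did not rise 229 rose (14.5%). These shares are a description, since neighbouring genes are not independent.

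The largest rises outside the known targets, among genes with at least 20 CPM in one group, came from genes of scattered function. Srxn1, which reduces oxidised peroxiredoxins, had 178, 279 and 511 CPM at 1 h, against 0, 0.531 and 2.22 CPM at 0 h (8.87 ± 0.33, adjusted p = 6.03e-39). Osgin2 had 902, 1390 and 1780 CPM at 1 h, against 2.64, 5.65 and 9.43 CPM at 0 h (7.86 ± 0.24, adjusted p = 1.06e-46). Arc, an immediate early gene of neurons, rose by 7.03 ± 0.38 (adjusted p = 8e-28). Flrt3, an adhesion protein that binds Unc5 and latrophilins, rose by 7.01 ± 0.38 (adjusted p = 4.45e-28). Hmga1b rose by 7.62 ± 0.38 (adjusted p = 2.86e-30), but it is nearly identical to Hmga1, and their reads may have been shared. The largest rise in this group was that of the gene model Gm15425 (9.36 ± 0.42, adjusted p = 1.02e-33).

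The largest falls were led by Txnip, an inhibitor of thioredoxin and of glucose uptake, with 2.07, 5.00 and 8.71 CPM at 1 h, against 115, 286 and 469 CPM at 0 h (-5.81 ± 0.46, adjusted p = 5.9e-19). Kctd14 fell by 4.92 ± 0.57 (adjusted p = 1.29e-11) and Tmprss13, a membrane serine protease, by 4.23 ± 0.42 (adjusted p = 1.99e-14). Ak4, a mitochondrial adenylate kinase, fell by 3.35 ± 0.47 (adjusted p = 8.2e-09), and Sinhcaf, a subunit of SIN3 histone deacetylase complexes, by 3.41 ± 0.33 (adjusted p = 3.03e-15). Repin1, another zinc finger gene but one outside the Zfp names, fell by 3.33 ± 0.29 (adjusted p = 1.3e-17). Speer4a and Gm10220, of a family of near-identical copies, fell by 3.66 and 3.54, and their reads cannot be assigned with confidence. Pgam1, a glycolytic enzyme, fell by 1.20 ± 0.18 (adjusted p = 2.24e-08) with no overlap of the groups.

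The shares of genes that rose and fell varied with level and gene span. In the most abundant of the 4 classes of level 31.6% rose and 19.9% fell, whereas in the second class 13% rose and 25.9% fell. Genes that rose had a median span of 18.7 kb and 7 exons, and genes that fell 19.7 kb and 8 exons, against 20.6 kb and 8 exons over all tested genes. The share that rose hardly varied with span, from 18.4% to 21% across 5 span classes. The share that fell did: it was 16% for genes under 5 kb, 27.2% for 5 to 10 kb, 28.9% for 10 to 30 kb, 24.5% for 30 to 100 kb and 14.8% for genes of at least 100 kb, so that the shortest and the longest genes fell least often. Falls beyond a log2 change of 1 by the test were 4.44% of genes under 5 kb, 8.51% of those of 10 to 30 kb and 1.50% of those of at least 100 kb. Of processed pseudogenes, copies that arose from mRNA and lack introns, 21.4% of 918 rose and 7.63% fell, against 18.9% and 24.7% of protein-coding genes.

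Marker genes of the follicle's cells gave the setting for these changes. Granulosa markers summed to 81800 to 125000 CPM at 1 h and 58100 to 99000 CPM at 0 h, with 3 of 10 higher and Foxl2 lower. The 3 were Cyp19a1, Nr5a2 and Serpine2, which are themselves regulated by gonadotropins. Oocyte markers summed to 19.2 to 111 CPM at 1 h and 14.6 to 109 CPM at 0 h, and 1 of 10 tested rose, Tcl1. H1f8, an oocyte gene that also rose, is outside these 10, because the list held it under another symbol. The mean was higher at 1 h in 14 of the 17 listed oocyte genes: Zar1 averaged 6.48 CPM at 1 h and 3.29 CPM at 0 h, and Bmp15 averaged 4.31 CPM at 1 h and 2.26 CPM at 0 h. Ddx4 was at 0 in all 6 follicles at 1 h and in 15 of 18 at 0 h. The part of the oocyte's share of the RNA in the rises of Gpr3 and H1f8 was not tested. Theca and stroma markers spanned 711 to 3020 CPM at 1 h and 309 to 2820 CPM at 0 h, with only Ptch1 lower among 13 tested.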

How the data were processed

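Single fresh follicles at 1 h (6) and 0 h (18) were compared. The authors deposited estimated counts per gene and, in a second table, log2(TPM + 1) values for 83 libraries, per the file headers. Per the submitters' processing notes, build mm10 was used along with Bowtie2, HISAT2, Partek and DESeq2; no version or role is stated. cDNA was made by Smart-Seq2 and libraries by Nextera XT, without molecular identifiers, per the labels' protocols.

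Estimated counts were rounded and tested with edgeR 4.0.16 (R 4.3.3; robust quasi-likelihood test, TMM, expression filter with a minimum count of 10). One model held all 83 libraries, with 8 group means and a term for the title prefix of vitrified libraries only. P-values were adjusted by Benjamini-Hochberg over 11521 genes and read at 0.05; 5632 genes had an unadjusted p under 0.05. No plate term can be fitted for this comparison. The code was tested on simulated data. Alternatives used limma 3.58.1 and DESeq2 1.42.0.

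The comparison, the 43 gene classes and the other lists were chosen with earlier results of these data known. Genes were named by rule: in each class up to 2 called genes with the largest rise and up to 2 with the largest fall; the 10 largest rises and falls with no overlap between groups and at least 20 CPM; the 6 largest gains and losses in CPM; and 6 promoters with the element. This gave 198 genes. The choice of promoters passed over a chromosome whose sequences are not reported here. Marker genes named beyond these were chosen after their values were seen, and 21 symbols that look like dates are not named. Some results of these lists are not reported here.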

Additional observations from a re-analysis of the deposited data

Results flagged for a closer look

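In 91 named genes with a mean of at least 20 CPM, the 6 follicles of 1 h were searched for a follicle far from the others, by the gap to its nearest neighbour as a share of the group's range on the log2(CPM + 0.5) scale. Chance alone marks about 1 in 20 such groups, and 7 were marked. In each the distant follicle was the lowest, and in 4 of them it was replicate 1.

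Replicate 1 was low in Cycs (share 0.744; 22.8 CPM, against 29.8 to 32.7 CPM in the others), Hs3st1 (0.708; 533 against 1000 to 1300 CPM), Hmga1b (0.706; 161 against 306 to 399 CPM) and Areg (0.628; 399 against 694 to 964 CPM). Replicate 2 was low in Heyl (0.662; 241 against 328 to 383 CPM). Replicate 3 was low in Btg2 (0.639; 1800 against 3130 to 4280 CPM). Replicate 6 was low in Fzd3 (0.629; 18.6 against 34 to 48.3 CPM). Each of these 7 genes kept its call without the follicle concerned.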

How the results depend on the processing

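Genes that rose numbered 1139 with total counts alone, 1242 with limma on log2(TPM + 1) and 759 in a test against a log2 change of 1, and genes that fell 5129 with total counts alone and 695 in that test. The other alternatives moved neither count by over 1.5 times. The difference in genes with a count lost its call against plate row E (-1112) and row F (-965) and ranged from -1173 to -909 without 1 library of 1 h, the call lost each time; that in the share of the 50 most abundant genes lost its call against row E (-3.14) and ranged from -4.3 to -3.41, again lost each time. Of 44 class medians 26 were above 0 with TMM and 6 with total counts alone, where the median over all genes was -0.59. With limma 46 class counts moved by over 1.5 times and 42 did not. With total counts alone 62 moved and 26 did not, and with a minimum count of 30 these were 13 and 75. In the test against a log2 change of 1 they were 83 and 5. All 198 named genes kept their direction under every alternative that gave a value, and 133 also kept their call; 158 of 3010 values lost it and none reversed. No paired analysis was possible because replicate numbers were given in accession order and the labels pair no follicles. Genes of a few CPM rest on few counts, and their falls to 0 are limited by depth.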
